A study of Homo sapiens with 6 samples.

Results

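Synaptic vesicle and exocytosis genes were compared between SY5Y-TR1 cells, made resistant to the ALK inhibitor TAE684, and the parental SH-SY5Y cells. The 41 genes were named from their known roles in synaptic vesicle release, with earlier results of these data known. All 41 were measured among 19775 genes on the arrays. They comprise the SNARE proteins that fuse membranes, synaptotagmins and RPH3A, priming and docking factors, proteins of the vesicle membrane, and proteins of vesicle recycling. Among probe sets annotated to 1 gene alone, the one brightest on average over the 6 arrays stood for that gene. SY5Y-TR1 is a subclone of SH-SY5Y cells, a human neuroblastoma (NB) line carrying ALK F1174L, and was kept in 1 μM TAE684. SH-SY5Y cells were kept in medium without the compound, and both lines carry the ALK mutation. Total RNA of each line was hybridized to 3 Affymetrix U133 Plus 2.0 microarrays, labelled as biological replicates. The resistant line is a single subclone and was sampled in the compound, so that resistance, clone and the presence of TAE684 cannot be told apart here. The cultures behind the replicates are not described, so p-values measure the spread between these samples.

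A vesicle releases its cargo when SNAREs of the vesicle, the VAMP proteins, pair with SNAREs of the plasma membrane, the syntaxins and the SNAP proteins. Rab GTPases and active zone scaffolds bring the vesicle to the membrane, priming factors ready it, and synaptotagmins couple fusion to calcium. Sympathetic neurons and the neuroblasts from which NB arises use this machinery for small synaptic vesicles and for the dense-core vesicles that hold catecholamines and peptides, whereas most other cells use related SNAREs for constitutive secretion and recycling.

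Across this machinery, genes were both higher and lower in SY5Y-TR1 cells. A gene was called where the fold change was at least 2 and the Benjamini-Hochberg adjusted p from limma, over all genes, was under 0.05. Of the 41 genes, 8 were higher, 7 were lower and 26 were not called, beside 5.36% of all genes called higher and 5.99% called lower (11.4% in either direction). The genes were chosen with earlier results of these data known, so these counts are no independent evidence of an excess. The median log2 fold change of the 41 genes was 0.14, against 0.04 over all genes. The largest increases were in RAB3B, CADPS and RAB27B, which act in docking and priming, and the largest decreases were in SYT4 and SNAP25. The lines did not overlap on the arrays for 29 of the 41 genes, beside 59.8% of all genes. The deposited values hold no detection calls, so the log2 signal of background, 6.05, was taken from 42 measured genes of unrelated tissues. By that level, 33 of the 41 genes were above background on at least 1 array and 8 were not. Of the 33, 8 were higher and 6 lower, beside 8.19% and 8.96% of all genes above background, a filter that a gene can pass through its bright line alone. A gene whose dimmer line never exceeded background has only a lower bound on its fold, written as at least the brighter mean over that level.

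**Figure D1:**
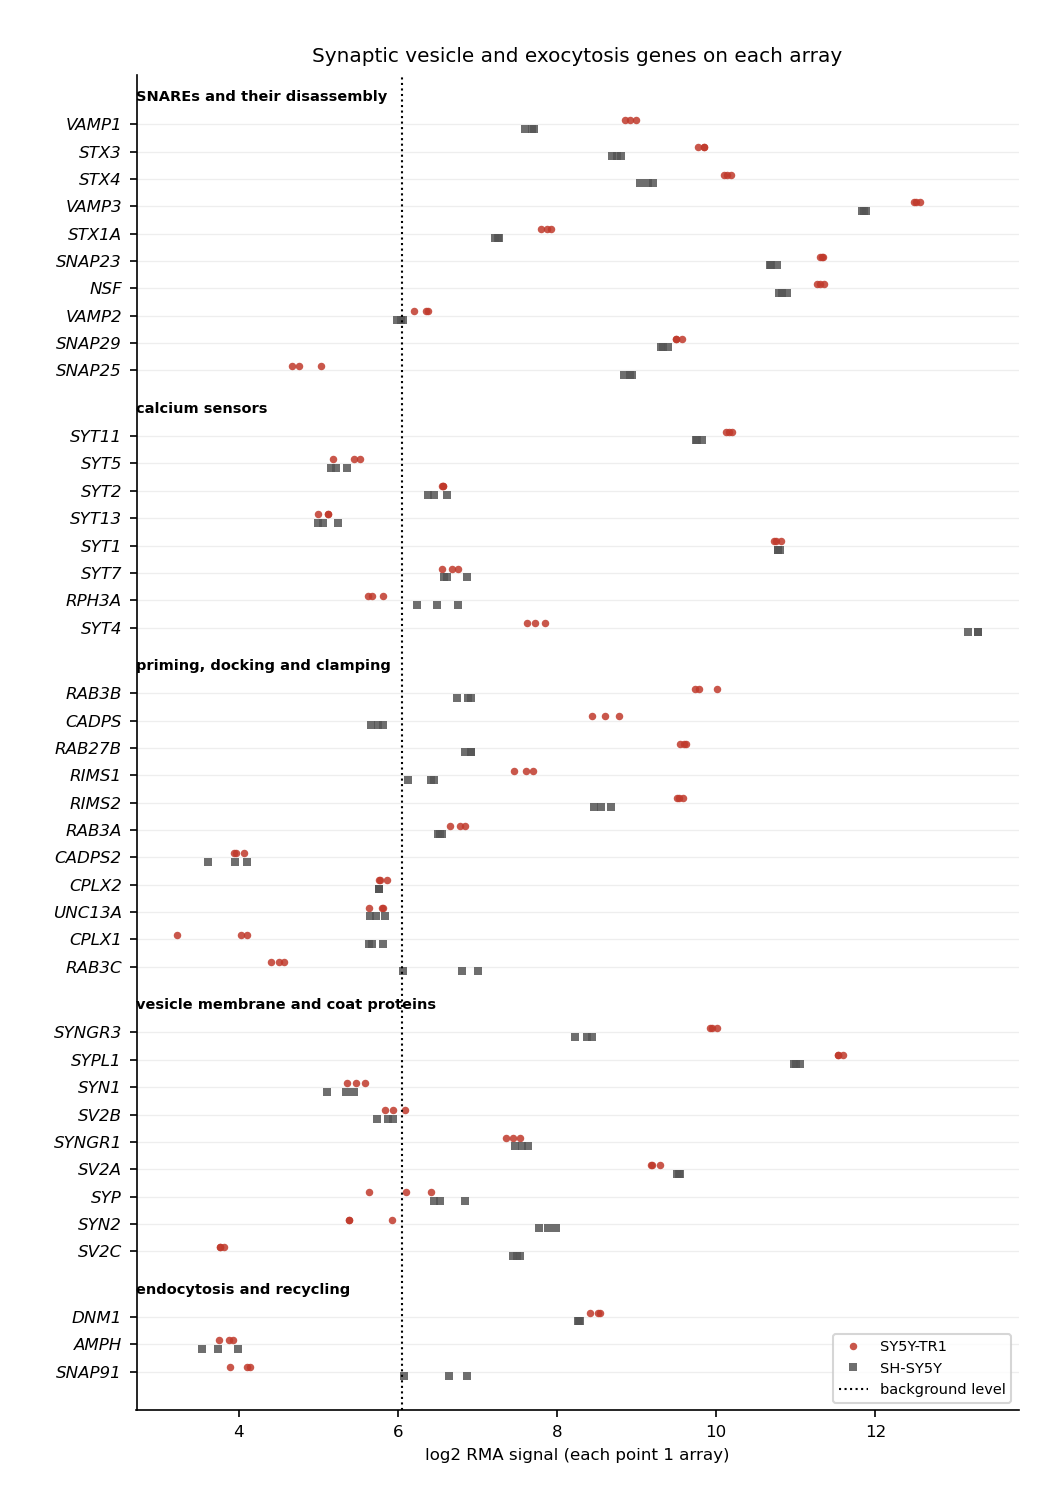
Log2 RMA signal (x axis) of each of the 41 genes on each array, grouped by role and ordered by log2 fold change; red circles are the 3 SY5Y-TR1 arrays, grey squares the 3 SH-SY5Y arrays, and the dotted line is the background level of 6.05. SYT4 and SNAP25 lie far to the left in SY5Y-TR1, RAB3B, CADPS and RAB27B far to the right, and the SYT1 points of both lines lie together.

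Replicates of a line correlated at 0.997 to 0.998 over all probe sets (Pearson's r), and the lines at 0.959 to 0.960. The median SD between replicates was 0.07 in each line on the log2 scale. Of 16 measured markers of noradrenergic neuroblasts, 13 were lower in SY5Y-TR1. The brightest of the 16, GATA3 and ISL1, transcription factors of sympathetic neurons, had log2 fold changes of -2.08 and -0.69, and ISL1 stayed under 2-fold. The summed linear signal of the 16 was 5597 to 5893 in SY5Y-TR1 and 35781 to 36820 in SH-SY5Y, and TH, the first enzyme of catecholamine synthesis, was not above background in either line. Of 12 measured markers of mesenchymal NB cells, 8 were higher in SY5Y-TR1, with a summed linear signal of 91774 to 97152 in SY5Y-TR1 and 43362 to 43926 in SH-SY5Y. VIM and COL3A1, the brightest of the 12, had log2 fold changes of 0.27 and 0.57 and were not called. The log2 signal of VIM, 14.26 to 14.55, lay near the highest of each array, 14.69 to 14.74. Whether this lowered its fold was not tested. The study listed VIM among the genes overexpressed in SY5Y-TR1 on these arrays, in a heatmap with a 2-fold limit. The brightest of its 2 probe sets did not reach that limit here, and the other is not reported here. The study also reported higher vimentin in SY5Y-TR1 by quantitative PCR and western blot. Of the measured markers of Schwann, blood and endothelial cells, 4 of 6, 5 of 6 and 6 of 8 were not above background in either line, among them S100B, PTPRC and CDH5. Their log2 fold changes ran from -0.29 to 0.34, with summed linear signals of 183 to 202, 183 to 191 and 276 to 282 in SY5Y-TR1 and 182 to 190, 169 to 180 and 235 to 265 in SH-SY5Y. The part of these marker differences in the results on vesicle genes was not tested. In RNA of a whole culture, fewer cells of a kind and less RNA per cell cannot be told apart.

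**Figure D2:**
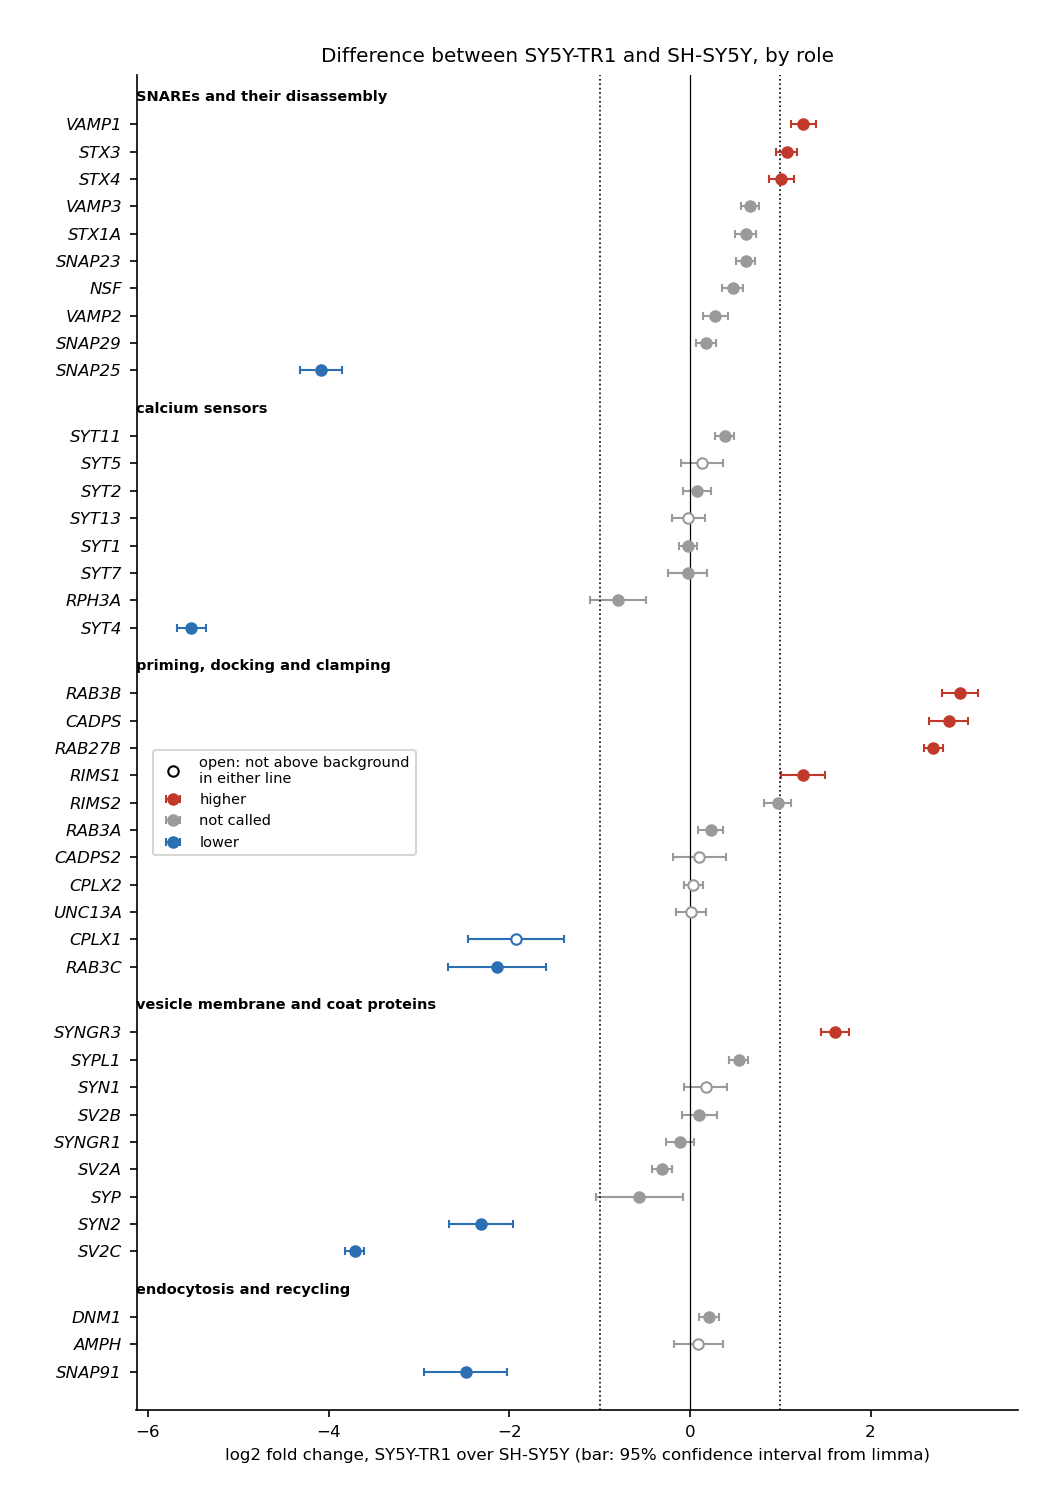
Log2 fold change of SY5Y-TR1 over SH-SY5Y (x axis) for each of the 41 genes by role, from limma on 3 arrays in each line; bars are 95% confidence intervals, colours show the call, open circles mark genes not above background in either line, and dotted lines mark 2-fold. Called genes of both directions stand in the SNARE, the docking and the vesicle membrane groups.

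To show the sequence beside the largest changes, counting a bound where only a bound on the fold could be had, promoters with an entry in the RefSeq table used are given for the 250 bases upstream of the start, on build GRCh38.p14, 5′ to 3′ on the strand of the gene. RAB3B (chr1:51990701-51990950, minus strand), CADPS (chr3:62875417-62875666, minus strand) and RAB27B (chr18:54717607-54717856, plus strand) were higher in SY5Y-TR1. SYT4 (chr18:43277491-43277740, minus strand), SYN2 (chr3:12004138-12004387, plus strand) and SV2C (chr5:76083133-76083382, plus strand) were lower. Capitals mark every match, on either strand, to one of 8 motifs searched.
RAB3B: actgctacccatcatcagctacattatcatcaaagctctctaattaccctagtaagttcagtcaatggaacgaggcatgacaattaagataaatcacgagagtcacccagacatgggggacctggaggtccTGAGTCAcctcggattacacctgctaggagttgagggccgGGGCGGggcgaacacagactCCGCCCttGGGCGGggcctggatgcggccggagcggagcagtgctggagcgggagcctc
CADPS: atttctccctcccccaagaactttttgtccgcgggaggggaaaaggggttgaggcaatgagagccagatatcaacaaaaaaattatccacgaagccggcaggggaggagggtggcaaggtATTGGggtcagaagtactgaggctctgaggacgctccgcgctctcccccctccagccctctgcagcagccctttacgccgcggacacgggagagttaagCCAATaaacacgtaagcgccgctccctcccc
RAB27B: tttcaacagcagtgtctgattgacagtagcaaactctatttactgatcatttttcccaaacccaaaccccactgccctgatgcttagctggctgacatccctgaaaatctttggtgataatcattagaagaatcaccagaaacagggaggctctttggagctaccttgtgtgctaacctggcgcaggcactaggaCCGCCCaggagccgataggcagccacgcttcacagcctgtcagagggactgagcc
SYT4: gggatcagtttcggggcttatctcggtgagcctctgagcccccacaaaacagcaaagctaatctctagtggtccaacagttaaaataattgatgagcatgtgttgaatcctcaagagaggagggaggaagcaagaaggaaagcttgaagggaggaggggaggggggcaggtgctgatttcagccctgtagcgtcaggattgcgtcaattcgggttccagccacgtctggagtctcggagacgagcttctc
SYN2: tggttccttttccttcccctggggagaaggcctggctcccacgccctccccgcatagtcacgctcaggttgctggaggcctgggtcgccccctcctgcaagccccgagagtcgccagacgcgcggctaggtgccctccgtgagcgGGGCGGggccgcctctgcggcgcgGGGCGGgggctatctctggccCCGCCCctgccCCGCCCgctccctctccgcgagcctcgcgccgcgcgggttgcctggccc
SV2C: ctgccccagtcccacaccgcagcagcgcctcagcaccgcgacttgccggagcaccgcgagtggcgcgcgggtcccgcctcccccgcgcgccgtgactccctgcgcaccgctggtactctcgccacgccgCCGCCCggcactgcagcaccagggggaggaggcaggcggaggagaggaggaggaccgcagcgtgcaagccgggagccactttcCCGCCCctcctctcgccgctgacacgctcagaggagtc
Of the 41 genes, 34 had an entry, and SNAP25, CPLX1 and SYNGR3 were the called genes without one. The AP-1 site TGANTCA is bound by FOS and JUN proteins. It stood in 2 of the 34 windows (RAB3B and RIMS1) and in 6.6% of all 27305 promoters. In RAB3B it begins at position -119 relative to the start of the gene. The GC box GGGCGG stood in 24 of the 34 windows and 42.3% of all, the CCAAT box CCAAT in 5 and 33.0%, and the E-box CAGCTG in 4 and 13.8%. The median share of G and C was 58.0% over all windows. It was 58.0%, 74.4% and 71.8% in windows of genes called higher, lower and not called. The part of this base composition in the motif shares was not tested. The cyclic AMP element TGACGTCA stood in the SYN1 window alone and in 1.77% of all. Of the element bound by the neuronal repressor REST, the left part TTCAGCACC stood in the SYN1 window alone and in 0.3% of all, and the right part GGACAG in 9 windows and 17.1%. The TATA box TATAAA, searched likewise, is in 11.1% of all windows and in none of the 34. The motifs share no letters with one another where they matched in the 6 windows shown, and the SYT4 window held no match. A match describes letters and not a site that is bound.

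Among the 10 SNARE genes, SNAP25 was called lower, 3 genes were called higher and 6 were not called. SNAP25, the neuronal plasma membrane SNARE cleaved by botulinum toxin A, gave log2 signals of 4.75, 4.67 and 5.03 in SY5Y-TR1, against 8.92, 8.84 and 8.94 in SH-SY5Y. All SY5Y-TR1 arrays lay under the background level and all SH-SY5Y arrays far above it, so the gene was at least 7.22-fold lower (log2 fold change -4.08 ± 0.10, SE, with a limma adjusted p = 1.12e-07). A dimmer SNAP25 probe set, averaging 6.08 (SY5Y-TR1) and 7.23 (SH-SY5Y), was also called lower, at a log2 fold change of -1.15, and the third lay under the background level in both lines. SNAP23, the relative of SNAP25 in cells that are not neurons, gave 11.35, 11.33 and 11.31 in SY5Y-TR1, against 10.68, 10.69 and 10.77 in SH-SY5Y. SNAP29, which serves fusion of endosomes and autophagosomes, gave 9.58, 9.50 and 9.50 in SY5Y-TR1, against 9.39, 9.30 and 9.33 in SH-SY5Y. Both read higher on every SY5Y-TR1 array without reaching 2-fold, with log2 fold changes of 0.62 and 0.18 (adjusted p = 2.01e-05 and 0.0145 from limma). The dimmer SNAP29 probe sets, above background on every array, read 0.07 and -0.02 on that scale.

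The syntaxins, the other SNAREs of the plasma membrane, gave 2 calls, STX3 and STX4, both higher in SY5Y-TR1. STX3, found in apical membranes and ribbon synapses, gave 9.84, 9.77 and 9.85 in SY5Y-TR1, against 8.80, 8.69 and 8.75 in SH-SY5Y. It was 2.10-fold higher (log2 fold change 1.07 ± 0.05, SE, with a limma adjusted p = 2.15e-06). STX4, which serves secretion in cells other than neurons, gave 10.19, 10.10 and 10.14 in SY5Y-TR1, against 9.14, 9.04 and 9.20 in SH-SY5Y. It was 2.02-fold higher (log2 fold change 1.01 ± 0.06, SE, with a limma adjusted p = 5.64e-06), just inside the limit, and both of its probe sets were called. Without SY5Y-TR1 replicate 1 the log2 fold change of STX4 was 0.99, without SH-SY5Y replicate 2 it was 0.97, and with arrays centred on housekeeping genes it was 0.97, so the call was lost in each case. STX1A, the partner of SNAP25 at synapses, gave 7.80, 7.87 and 7.93 in SY5Y-TR1, against 7.27, 7.26 and 7.22 in SH-SY5Y, a log2 fold change of 0.62 (adjusted p = 3.15e-05 from limma) that stays under 2-fold. The lines did not overlap for any of the 3 syntaxins. The other 2 probe sets of STX3 had log2 fold changes of 0.80 and 0.91 and were not called. The first was above background on 1 SY5Y-TR1 array alone, and the second on no array.

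Of the vesicle SNAREs, VAMP1 was called. VAMP1, a synaptobrevin of spinal cord and neuromuscular synapses, gave 8.85, 9.00 and 8.92 in SY5Y-TR1, against 7.69, 7.60 and 7.71 in SH-SY5Y. It was 2.39-fold higher (log2 fold change 1.26 ± 0.06, SE, with a limma adjusted p = 1.87e-06), with every SY5Y-TR1 array above every SH-SY5Y array. Its other 2 probe sets lay under the background level in both lines, and VAMP1 was not called with the mean of its probe sets (log2 fold change 0.73). VAMP2, the main synaptobrevin of brain, gave 6.38, 6.20 and 6.35 in SY5Y-TR1, against 6.07, 6.04 and 5.98 in SH-SY5Y. These values lie close to the background level, and the log2 fold change was 0.28 (adjusted p = 0.00532 from limma). VAMP3 (cellubrevin), the relative that serves recycling endosomes in most cells, gave 12.56, 12.49 and 12.51 in SY5Y-TR1, against 11.86, 11.83 and 11.88 in SH-SY5Y. All 3 of its probe sets read higher in SY5Y-TR1 at log2 fold changes of 0.62 to 0.76, under the 2-fold limit. NSF, the ATPase that takes spent SNARE complexes apart, gave 11.27, 11.30 and 11.35 in SY5Y-TR1, against 10.89, 10.82 and 10.78 in SH-SY5Y, without overlap and with a log2 fold change of 0.47 (95% confidence interval 0.36 to 0.59). Of the 10 genes of this group, 9 had a positive and 1 a negative difference at an adjusted p under 0.05 from limma with no limit on the fold, beside 28.5% and 24.3% of all genes. With probe sets averaged, SNAP29 and NSF did not pass that limit (adjusted p = 0.224 and 0.242 from limma).

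The group drawn as calcium sensors, the synaptotagmins and RPH3A, gave 1 called decrease, in SYT4, while SYT1 showed no detectable difference. SYT4, a synaptotagmin of dense-core vesicles and the Golgi, gave 7.72, 7.63 and 7.85 in SY5Y-TR1, against 13.17, 13.29 and 13.30 in SH-SY5Y. It was 45.8-fold lower (log2 fold change -5.52 ± 0.07, SE, with a limma adjusted p = 1.25e-08), the largest change among the 41 genes by log2 fold change, and remained above background on all SY5Y-TR1 arrays. A single probe set measures it. SYT1, the sensor of fast transmitter release, gave 10.75, 10.72 and 10.81 in SY5Y-TR1, against 10.77, 10.81 and 10.78 in SH-SY5Y. The lines overlapped, and the log2 fold change of -0.02 had a 95% confidence interval of -0.12 to 0.08. Its dimmer probe set read -0.10 on that scale. SYT11, a synaptotagmin that does not bind calcium, gave 10.20, 10.13 and 10.16 in SY5Y-TR1, against 9.82, 9.74 and 9.76 in SH-SY5Y, with a log2 fold change of 0.39 (adjusted p = 0.000237 from limma) and no overlap. SYT2, the fast sensor of hindbrain and neuromuscular synapses, and SYT7, the sensor of slow release, lay near the background level. Their log2 fold changes were 0.08 (95% confidence interval -0.08 to 0.24) and -0.03 (95% confidence interval -0.24 to 0.19). SYT5 and SYT13 were not above background in either line. RPH3A, which encodes the Rab3 effector rabphilin, gave 5.68, 5.81 and 5.62 in SY5Y-TR1, against 6.24, 6.76 and 6.50 in SH-SY5Y. It lay under the background level on all SY5Y-TR1 arrays and was the closest gene under the limit on the lower side (log2 fold change -0.80, adjusted p = 0.00154 from limma).

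Docking and priming factors held the 3 largest increases and had members that changed in opposite directions. RAB3B, a Rab3 GTPase of secretory cells, gave 9.74, 10.01 and 9.79 in SY5Y-TR1, against 6.91, 6.75 and 6.89 in SH-SY5Y. It was 7.97-fold higher (log2 fold change 2.99 ± 0.08, SE, with a limma adjusted p = 2.20e-07), and all 5 of its probe sets were called higher at log2 fold changes of 2.04 to 3.04. RAB27B, the Rab of secretory granules and exosome release, gave 9.60, 9.55 and 9.62 in SY5Y-TR1, against 6.92, 6.85 and 6.92 in SH-SY5Y. It was 6.48-fold higher (log2 fold change 2.70 ± 0.04, SE, with a limma adjusted p = 2.91e-08), and its other 2 probe sets lay under the background level in both lines, with log2 fold changes of 0.31 and 1.04, the second of which was called. RAB3C, a Rab3 of neurons, ran the other way, at 4.41, 4.57 and 4.50 in SY5Y-TR1, against 7.01, 6.06 and 6.81 in SH-SY5Y. Replicate 2 of SH-SY5Y lay at the background level and below its other replicates. RAB3C was at least 1.49-fold lower (log2 fold change -2.14 ± 0.23, SE, with a limma adjusted p = 0.000169), with 3 of 4 probe sets called. All but the brightest of the 4 lay under the background level in both lines. RAB3C was not called where values under the background level were raised to it (log2 fold change -0.58, adjusted p = 0.199 from limma). RAB3A, the most abundant Rab3 of brain synapses, gave 6.79, 6.85 and 6.66 in SY5Y-TR1, against 6.54, 6.50 and 6.56 in SH-SY5Y, a log2 fold change of 0.23 (adjusted p = 0.0125 from limma) with no overlap.

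CADPS, which encodes CAPS1, the factor that primes dense-core vesicles, gave 8.45, 8.78 and 8.61 in SY5Y-TR1, against 5.82, 5.67 and 5.75 in SH-SY5Y. All SH-SY5Y arrays lay under the background level, so CADPS was at least 5.91-fold higher (log2 fold change 2.87 ± 0.09, SE, with a limma adjusted p = 3.56e-07). Of its 6 probe sets 5 were called higher, although 3 of those lay under the background level in both lines. CADPS2, its relative, gave 3.94, 3.97 and 4.07 in SY5Y-TR1, against 4.10, 3.95 and 3.61 in SH-SY5Y, under the background level throughout, and UNC13A, which encodes the synaptic vesicle priming factor Munc13-1, was not above it either. RIMS1, an active zone scaffold that binds Rab3, gave 7.70, 7.46 and 7.61 in SY5Y-TR1, against 6.46, 6.13 and 6.42 in SH-SY5Y. It was 2.39-fold higher (log2 fold change 1.26 ± 0.10, SE, with a limma adjusted p = 4.11e-05), and with the mean of its probe sets the log2 fold change was 0.75, so that it was not called. RIMS2, the second scaffold of this family, was the closest gene outside the limit. It gave 9.54, 9.50 and 9.58 in SY5Y-TR1, against 8.55, 8.47 and 8.68 in SH-SY5Y, with no overlap between the lines (log2 fold change 0.97, adjusted p = 1.19e-05 from limma), and was called without SH-SY5Y replicate 3 (1.03). The complexins, which clamp SNARE complexes until calcium enters, were not above background: CPLX1 passed both limits at a log2 fold change of -1.93 with every array under that level, so no fold is given, and CPLX2 had a log2 fold change of 0.04.

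Proteins of the vesicle membrane and its cytoplasmic face gave 1 increase and 2 decreases. SYNGR3, a synaptogyrin of synaptic vesicles, gave 9.92, 9.94 and 10.01 in SY5Y-TR1, against 8.45, 8.22 and 8.38 in SH-SY5Y. It was 3.04-fold higher (log2 fold change 1.61 ± 0.07, SE, with a limma adjusted p = 1.22e-06) through its single probe set. SYNGR1, its relative, overlapped between the lines, with a log2 fold change of -0.11 (95% confidence interval -0.26 to 0.05). SV2C, a vesicle glycoprotein and botulinum toxin receptor, gave 3.77, 3.82 and 3.77 in SY5Y-TR1, against 7.50, 7.45 and 7.54 in SH-SY5Y. It was under the background level on all SY5Y-TR1 arrays and at least 2.73-fold lower (log2 fold change -3.71 ± 0.04, SE, with a limma adjusted p = 8.68e-09), with 3 of 4 probe sets called. SV2A, the most widely expressed member of that family, gave 9.18, 9.19 and 9.29 in SY5Y-TR1, against 9.55, 9.51 and 9.53 in SH-SY5Y, without overlap but under 2-fold at a log2 fold change of -0.31 (adjusted p = 0.00121 from limma). SV2B lay at the background level.

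SYN2, which encodes a synapsin that tethers vesicles to each other, gave 5.39, 5.39 and 5.92 in SY5Y-TR1, against 7.89, 7.77 and 7.98 in SH-SY5Y. SY5Y-TR1 arrays were all under the background level and SH-SY5Y arrays all above it, and SYN2 was at least 3.57-fold lower (log2 fold change -2.32 ± 0.15, SE, with a limma adjusted p = 1.21e-05), with 3 of 5 probe sets called. SYN1, another synapsin, was not above background in either line. SYP, which encodes the vesicle protein synaptophysin, gave 6.41, 6.10 and 5.63 in SY5Y-TR1, against 6.45, 6.52 and 6.84 in SH-SY5Y. Replicate 3 of SY5Y-TR1 was its lowest value, and the log2 fold change of -0.56 did not pass (adjusted p = 0.0529 from limma), although the lines did not overlap. SYPL1, the relative of synaptophysin found in most tissues, gave 11.60, 11.53 and 11.53 in SY5Y-TR1, against 11.00, 10.98 and 11.06 in SH-SY5Y, a log2 fold change of 0.54 (adjusted p = 4.53e-05 from limma).

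In vesicle recycling, SNAP91, which encodes the neuronal clathrin adaptor AP180, gave 3.90, 4.11 and 4.14 in SY5Y-TR1, against 6.64, 6.87 and 6.08 in SH-SY5Y. It was at least 1.40-fold lower (log2 fold change -2.48 ± 0.19, SE, with a limma adjusted p = 3.26e-05), and the call was lost where values under the background level were raised to it (log2 fold change -0.48, adjusted p = 0.190 from limma). DNM1, the neuronal dynamin that cuts vesicles from the membrane, had a log2 fold change of 0.21 (95% confidence interval 0.10 to 0.32). AMPH, which encodes amphiphysin, was not above background.

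**Figure D3:**
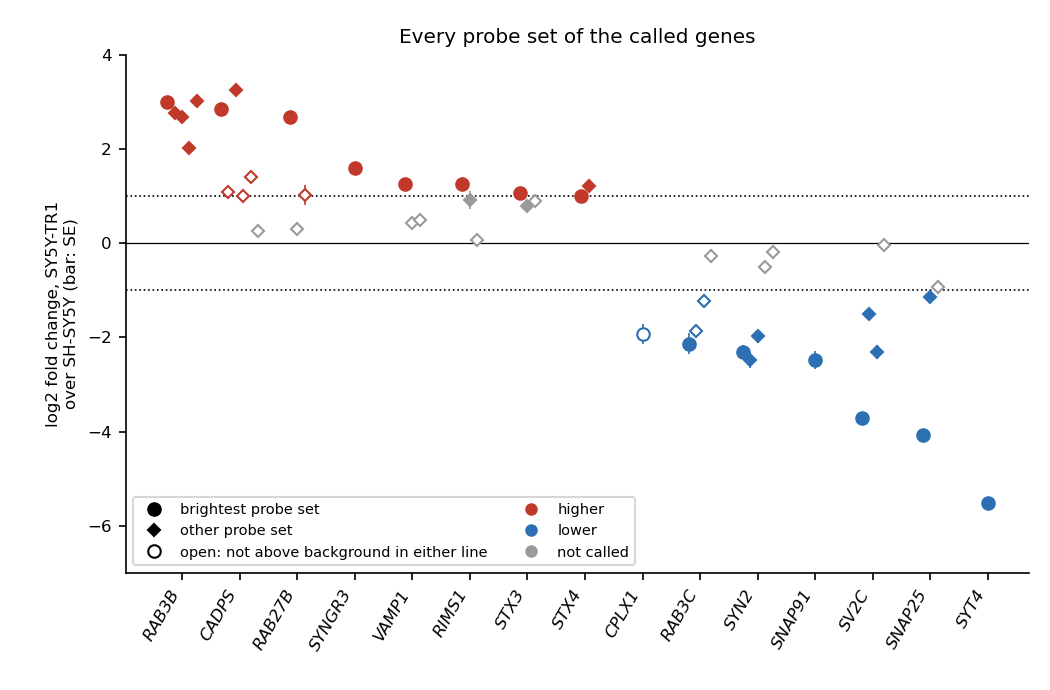
Log2 fold change of SY5Y-TR1 over SH-SY5Y (y axis) for every probe set of the 15 called genes, where bars give the SE from 3 arrays per line; circles are the brightest probe set of a gene, diamonds its other probe sets, open symbols lie at or under the background level in both lines, and dotted lines mark 2-fold. The 5 RAB3B probe sets all lie above 2-fold, whereas VAMP1, RIMS1 and STX3 have 1 called probe set each.

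In all, 102 probe sets measured the 41 genes, and 42 of them were not above background in either line. Over all 54613 probe sets, 3.79% were called higher and 4.58% lower. By limma, none of the 29 genes with several probe sets had calls in opposite directions. At an unadjusted p under 0.05, 1 did: NSF, whose brightest probe set read 0.47 and a probe set at background -0.27 on the log2 fold change scale. CPLX1, SYT4, SNAP91 and SYNGR3 rest on 1 probe set each.

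Related genes were set against each other within arrays, as the difference of their log2 signals, and the SY5Y-TR1 mean of that difference was compared with the SH-SY5Y mean. Over 12 pairs, the lines did not overlap in this difference for any pair. The lines also did not overlap for 59.8% of all single genes, and the share over pairs drawn from all genes was not computed. The pairs were chosen with earlier results of these data known, so this count is no independent evidence about related genes. Each pair reached p = 0.1 in a two-sided exact permutation test (adjusted p = 0.1 over the 12 pairs), the smallest p that 3 arrays against 3 allow, so the threshold of 0.05 could not be reached. For SNAP25 minus SNAP23 the SY5Y-TR1 mean less the SH-SY5Y mean was -4.70 log2 units (SE 0.12), and for SNAP25 minus SNAP29 it was -4.26 (SE 0.12). It was -2.76 for RAB3A minus RAB3B and -2.46 for RAB3A minus RAB27B. The values above 0 were 2.76 for CADPS minus CADPS2, 3.40 for SV2A minus SV2C and 0.60 for VAMP1 minus VAMP3. The values nearest 0 were -0.38 for VAMP2 minus VAMP3, -0.40 for STX1A minus STX4, -0.41 for SYT1 minus SYT11 and -0.46 for STX1A minus STX3. SYP minus SYPL1, at -1.10, had the widest SE of the 12 pairs (0.23). SNAP25 and SV2C were under the background level on all SY5Y-TR1 arrays, CADPS on all SH-SY5Y arrays and CADPS2 on every array, so the sizes of those 4 differences rest on signal under background. SYP on SY5Y-TR1 replicate 3 and VAMP2 on SH-SY5Y replicates 2 and 3 were also under that level. Setting such signals to that level, an alternative chosen after seeing the data, gave -3.47 for SNAP25 minus SNAP23, -3.03 for SNAP25 minus SNAP29, 2.56 for CADPS minus CADPS2 and 1.14 for SV2A minus SV2C. It gave -0.96 for SYP minus SYPL1 and -0.40 for VAMP2 minus VAMP3.

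**Figure D4:**
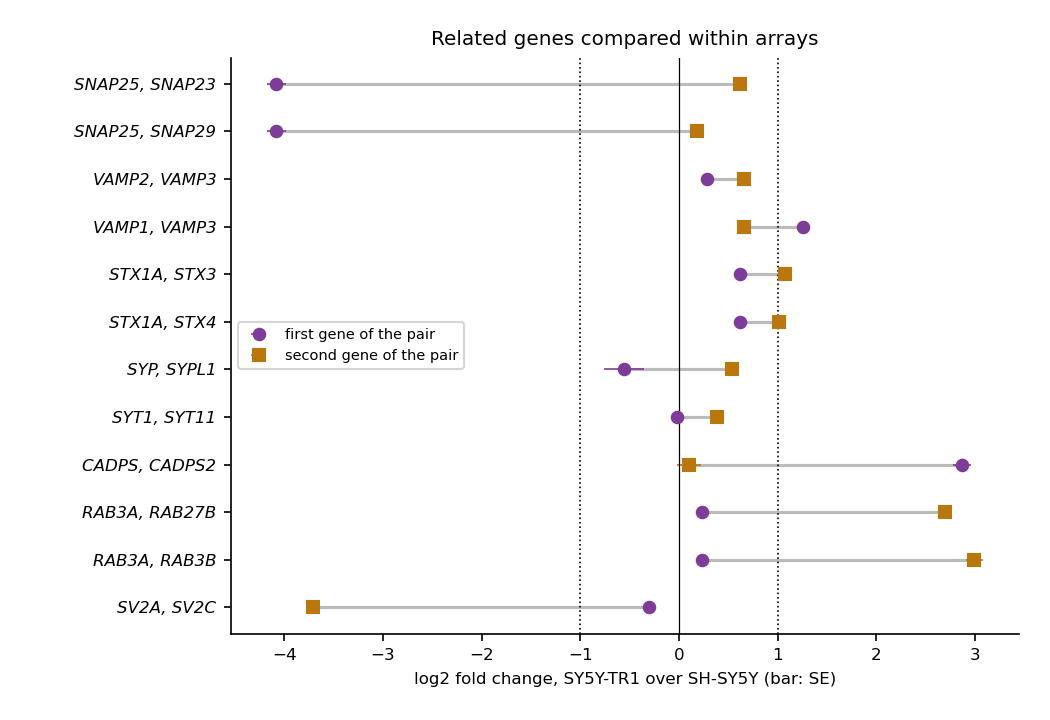
Log2 fold change of SY5Y-TR1 over SH-SY5Y (x axis) for the 2 genes of each of 12 related pairs, joined by a line; circles are the first gene named, squares the second, bars the SE from limma with 3 arrays per line, and dotted lines mark 2-fold. SNAP25 at -4.08 lies far from SNAP23 at 0.62, and CADPS at 2.87 far from CADPS2 at 0.11. SNAP25, SV2C, CADPS, CADPS2, SYP and VAMP2 include arrays under the background level.

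A wider list of 138 other genes of vesicle fusion, priming and recycling was read in the same way, and 130 were measured. Of these, 9 were higher, 7 lower and 114 not called, beside 5.36% and 5.99% of all genes, with a median log2 fold change of 0.11. Among other SNAREs and their regulators, STX7 of late endosomes and STXBP3, the Munc18 protein that binds STX4, were 2.21-fold and 2.08-fold higher. Among other synaptotagmins and their relatives, SYTL3 and SYTL1, effectors of Rab27, were 2.83-fold and at least 1.25-fold higher, SYT9 was at least 1.29-fold lower, and SYT16 passed with both lines under the background level (log2 fold change -1.23). At the active zone, PCLO, which encodes the scaffold Piccolo, was 3.75-fold lower and RIMBP2, a binding partner of RIM, at least 1.98-fold lower, while the Munc18-binding adaptor gene APBA1 was 2.93-fold higher. The vesicle genes SYNGR2, a synaptogyrin of cells that are not neurons, and TPRG1L were 2.40-fold and 2.52-fold higher. In recycling, DNM3, a dynamin, and STON1, a stonin, were 5.35-fold and 2.65-fold higher, whereas STON2 and AP3B2 passed as lower although neither line was above background. The 9 measured subunits of the exocyst, which tethers vesicles in most cells, had log2 fold changes of -0.60 to 0.41, all inside the 2-fold limit.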

How the data were processed

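Total RNA of SY5Y-TR1 and SH-SY5Y cells (3 arrays each) was profiled on Affymetrix U133 Plus 2.0 microarrays. The deposited values are log2 signals that the authors computed with RMA, which is named beside Affymetrix Expression Console in the submitters' processing notes, without a version in the sources used here. Background correction, quantile normalization and probe summary belong to RMA and could not be varied. Precision is limited by having 3 arrays per line.

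After 62 control probe sets were left out, 41091 of 54613 carried 1 gene symbol, 1801 several and 11721 none. Probe sets with several symbols named no gene. Symbols came from the platform annotation, checked by gene identifier against RefSeq (GRCh38.p14), which matched 41037. Each of 19775 genes was represented by its brightest probe set and compared with limma 3.58.1 (lmFit, eBayes) under R 4.3.3, SY5Y-TR1 over SH-SY5Y, with no replicate block and Benjamini-Hochberg adjustment over all genes. The limits were a fold of 2 and an adjusted p of 0.05, after the study's heatmap legend. The methods name GenePattern for the arrays and Student's test for comparisons between groups, and that test was run as an alternative. Background was set at the 90th percentile of mean signal among the 42 genes of unrelated tissues, so 5 of them lie above it by construction.

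The 41 genes and all lists and pairs were chosen with earlier results of these data known. Values on each array are given for every called gene above background, for the genes of each pair and for the 3 brightest genes that were not called. From each part of the wider list the 2 largest called increases and the 2 largest called decreases are named, from marker lists the 2 brightest, and the genes just inside and outside the 2-fold limit are given. S100B, PTPRC and CDH5 were named after their values were seen. No result of a run of the fit on simulated data is reported here. The alternatives included averaging a gene's probe sets, leaving out those with shared-sequence names, housekeeping centring (24 genes), repeated quantile normalization, a dim-probe filter and values raised to background. Others were a replicate block, trend and robust variance, the methods' t-test, folds of 1.5 and 4, and each array left out. Scanner files and detection calls were not used here.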

Additional observations from a re-analysis of the deposited data

How the results depend on the processing

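With the mean of all probe sets 5 of the 41 genes were higher, and in the wider list 3 were higher and 4 lower. Over all genes that setting gave 813 higher and 974 lower, against 1060 and 1185 in the main fit. Counts over all genes for the dim-probe filter and the raised values are not given here. With the dim-probe filter, which tested 32 of the 41 genes, 4 genes of the wider list were lower. With values raised to the background level 4 of the 41 genes and 1 of the wider list were lower. A fold of at least 1.5 gave 12 higher and 8 lower genes of the 41, 21 higher and 12 lower in the wider list and 2171 and 2162 over all genes. A fold of at least 4 gave 3 higher and 6 lower genes of the 41, 1 higher and 1 lower in the wider list, and 330 and 419 over all genes. Of the 6 lower genes among the 41, SV2C, SYN2, RAB3C and SNAP91 were under background on all SY5Y-TR1 arrays. Their bounds were at least 2.73-fold, 3.57-fold, 1.49-fold and 1.40-fold lower, so a 4-fold decrease was not shown for them. The median log2 fold change of the 41 genes was 0.09 with probe sets averaged (0.0927) or with housekeeping centring (0.0903). It was 0.11 without shared-sequence names (36 genes), 0.10 with quantile normalization repeated, 0.26 with the dim-probe filter and 0.02 (0.0150) with values raised to background. Leaving out 1 array at a time, it ran from 0.0926 to 0.1938, with 7 to 9 genes higher, 7 lower, and 9 to 10 higher and 6 to 7 lower in the wider list. Over all genes these counts were 1030 to 1082 higher and 1172 to 1206 lower. The cause of these differences was not tested.

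The replicate numbers pair no samples by the labels. The correlation of deviations between samples of the same number ran from 0.0002 to 0.0299, and with the replicate block 8 genes were higher, 7 lower and 1060 and 1185 over all genes, the counts without it. Of single genes, STX3 was not called with the mean of its probe sets (log2 fold change 0.93), nor CPLX1 with values raised to background, where both lines lie at that level. Of the 15 called genes, 8 lost the call under at least 1 alternative, folds of 4 included, and 7 (SYT4, SNAP25, SV2C, SYN2, RAB3B, CADPS and RAB27B) were called under every alternative that tested them. For SV2C and SYN2 the call at a fold of 4 rests on signal under background. Another 5 genes became called under at least 1 alternative, and no called gene changed direction. Signal under background in both lines limits what can be read for 8 of the 41 genes, and in 1 line for another 8.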
